A study of Mus musculus with 9 samples.

Results

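The genes described here encode 9 acute-phase proteins, measured in whole mouse lung: Saa1, Saa2, Saa3, Lcn2, Hp, Hpx, Orm1, Cp and Serpina3n. They were chosen by name, with earlier results of these data known. Their probes were found through the RefSeq accession that the array files give each probe. All 9 were among the 16592 genes with a tested probe, and their 13 probes (2 for Lcn2, 4 for Cp and 1 for each other gene) were well above background on all 9 arrays. The lungs came from male C57BL/6J mice, 12 weeks old when exposure began, on one-colour (Cy3) Agilent arrays. For 6 months the IQOS group breathed a 3.5% aerosol of IQOS, a product that heats tobacco without burning it. The CS group breathed 3.5% cigarette smoke and the control group fresh air over the same time. Each group had 3 arrays, named here IQOS 1 to 3, CS 1 to 3 and air 1 to 3 after the replicate numbers. Whether each array was a separate animal is not given in the sources used here, so p-values reflect the spread between these arrays, which may in part be technical.

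Acute-phase proteins are plasma proteins whose production changes during inflammation. Most are made by the liver under the control of IL-6-type cytokines, acting through STAT3, and of IL-1 and TNF, acting through NF-kappaB and C/EBP factors. Several are also made in the lung itself: airway and alveolar epithelium, macrophages and neutrophils are known sources of serum amyloid A3, lipocalin-2 and haptoglobin in the mouse.

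Levels are given as the background-subtracted probe signal divided by the array's own 75th percentile, a unitless multiple written below as the normalised signal. That percentile lay between 973.3 and 1098 signal units, and between 64.3% and 68.8% of probes were well above background on an array. A gene was called changed at a Benjamini-Hochberg adjusted p under 0.05 in limma over all 37257 tested probes. Each change is a log2 fold change ± its standard error, from 3 arrays per group. Signals of different probes are not on a common scale, so levels are compared between groups and not between genes. All 10 markers of alveolar type II cells and all 12 of club and airway secretory cells were well above background on all 9 arrays. The CS and air arrays shared 1 slide, whereas the IQOS arrays filled the other, so an effect of the slide cannot be told apart from that of IQOS aerosol. On the shared slide CS 1 to 3 and air 3 lay in array row 2, and air 1 and air 2 in row 1. IQOS 1 to 3 all lay in row 1 of their slide, so in IQOS against CS row and group coincide.

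Promoter windows are shown for the serum amyloid A genes and Lcn2, the members with the highest called changes that had an entry in the RefSeq promoter table (build GRCm38.p6, 250 bases before to 50 after the gene start, on the gene's strand). Of the 9 genes, 7 had an entry. Capitals mark a match to the C/EBP motif TTGCNNAA, read on either strand. The windows are chr7:46742931-46743230 (minus strand) for Saa1, chr7:46751583-46751882 (plus strand) for Saa2, chr7:46715627-46715926 (minus strand) for Saa3 and chr2:32387690-32387989 (minus strand) for Lcn2.
Saa1: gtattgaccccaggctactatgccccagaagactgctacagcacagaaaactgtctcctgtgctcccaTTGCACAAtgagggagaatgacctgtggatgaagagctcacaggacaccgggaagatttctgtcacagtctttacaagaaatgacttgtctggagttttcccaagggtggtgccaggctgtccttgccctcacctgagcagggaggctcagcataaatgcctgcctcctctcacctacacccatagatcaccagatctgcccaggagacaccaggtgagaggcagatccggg
Saa2: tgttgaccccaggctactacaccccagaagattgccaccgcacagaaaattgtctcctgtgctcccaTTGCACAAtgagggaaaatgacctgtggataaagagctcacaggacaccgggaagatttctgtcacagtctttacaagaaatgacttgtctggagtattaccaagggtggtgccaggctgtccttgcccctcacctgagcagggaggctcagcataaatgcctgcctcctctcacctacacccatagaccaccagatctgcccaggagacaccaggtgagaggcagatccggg
Saa3: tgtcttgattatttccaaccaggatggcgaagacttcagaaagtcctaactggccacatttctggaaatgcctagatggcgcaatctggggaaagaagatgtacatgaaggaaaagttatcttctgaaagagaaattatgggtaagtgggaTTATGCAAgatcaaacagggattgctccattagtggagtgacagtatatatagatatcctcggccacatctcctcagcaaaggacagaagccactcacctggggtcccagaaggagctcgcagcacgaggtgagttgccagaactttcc
Lcn2: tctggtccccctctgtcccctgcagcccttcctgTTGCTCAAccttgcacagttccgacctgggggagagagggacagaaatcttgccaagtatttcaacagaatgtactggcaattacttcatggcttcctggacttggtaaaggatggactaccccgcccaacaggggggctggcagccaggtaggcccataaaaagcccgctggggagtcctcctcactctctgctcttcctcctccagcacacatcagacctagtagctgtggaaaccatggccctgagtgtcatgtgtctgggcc

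The C/EBP match began 182 bases before the gene start in Saa1, 183 before it in Saa2, 99 before it in Saa3 and 216 before it in Lcn2. Hpx held one 200 bases before its start, and Cp one 70 bases before the later of its 2 starts. The motif was found in 6 of the 7 genes with a window, all but Serpina3n, and in 10.8% of 32851 mouse promoter windows of the same length. Hpx and Cp, which held the motif, were not called in any comparison below. On either strand the STAT motif TTCNNNGAA was found in 0 of 7 genes and 8.3% of all windows, and a kappaB motif in 0 of 7 and 8.46%. The TATA box motif TATAAA was found in 1 of 7 genes, Cp, and in 13.6% of all windows. No match of one motif overlapped a match of another. The windows of Saa1 and Saa2, neighbouring genes on chromosome 7, were identical at 287 of 301 aligned positions (95.3%), whereas Saa3 matched Saa1 at 49.4% and Saa2 at 49.8%. A match describes letters in a window and does not show that a factor binds there.

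Cigarette smoke was accompanied by higher Saa1, Saa2, Saa3, Lcn2, Hp and Orm1, from 1.24-fold for Hp to 6.71-fold for Saa3, with Hpx, Cp and Serpina3n not called. In CS against air 6 of the 9 genes were higher and 0 lower, against 5.61% of all 16592 tested genes called higher and 6.12% called lower. The median log2 fold change was 1.11 over the 9 genes and -0.02 over all tested genes. After IQOS aerosol 0 of the 9 were called against air in limma, with 2 at an unadjusted p under 0.05 (Lcn2 and Cp), against 1.99% of all genes called higher and 0.886% called lower. The median there was 0.06, against -0.01 over all genes. In IQOS against CS the 6 genes that were higher in CS than in air were lower in IQOS and 0 were higher, against 5.18% of all genes called lower and 4.94% called higher. The median was -1.21 over the 9 genes and 0.02 over all genes. CS against air and IQOS against CS share the CS arrays, so their calls are not independent of each other. Because the genes were chosen with earlier results known, the shares over all genes are given as description only. In whole lung, fewer cells of a type and less RNA per cell cannot be told apart.

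**Figure D1:**
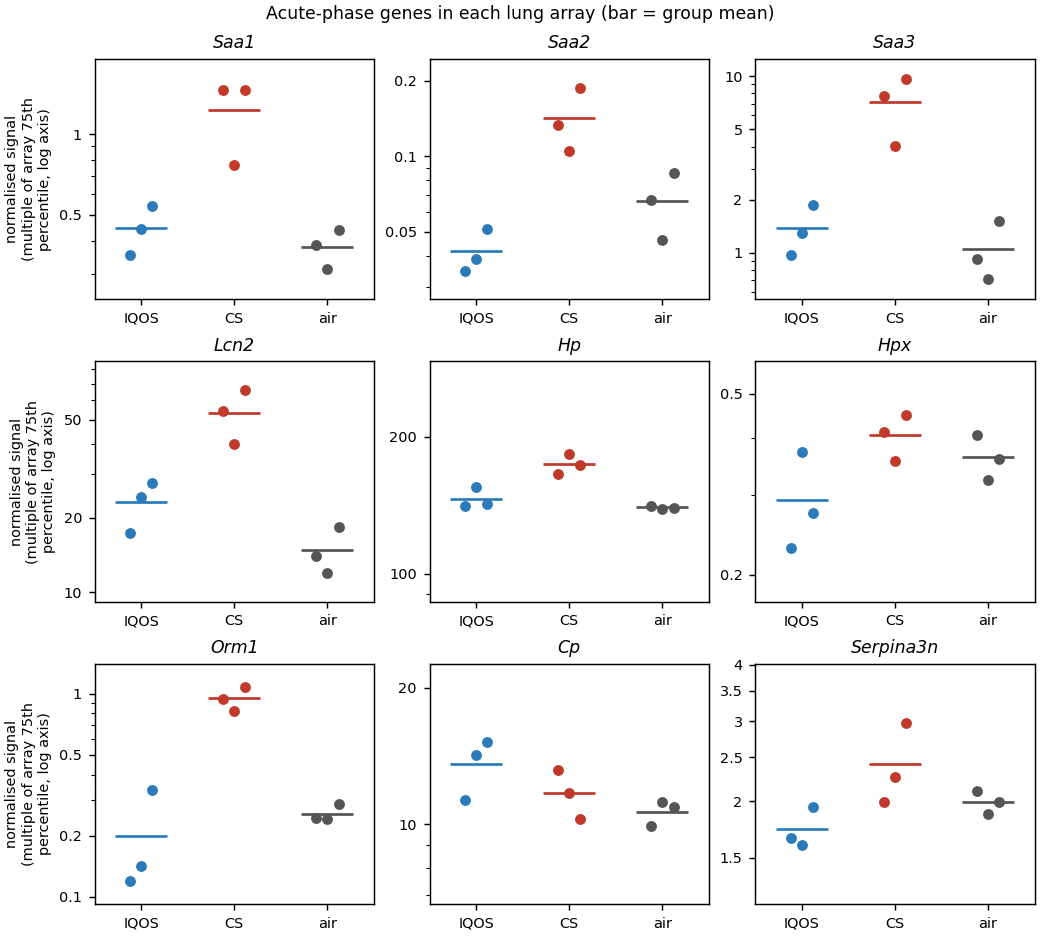
Normalised signal of the brightest probe of each of the 9 acute-phase genes, on log axes whose range differs by panel, for the 3 IQOS, 3 CS and 3 air arrays (points in order of replicate number, bar = group mean). For Saa3 the CS arrays lie between 4.01 and 9.63, above the IQOS arrays (0.966 to 1.87) and the air arrays (0.71 to 1.51), while for Hpx, Cp and Serpina3n the CS and air arrays overlap.

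Serum amyloid A proteins are small apolipoproteins that bind high-density lipoprotein, and in the mouse Saa1 and Saa2 are the main liver forms. Saa3 is the mouse form made outside the liver, in macrophages and epithelium among other cells. Its normalised signal was 0.966, 1.3 and 1.87 in IQOS 1 to 3, 7.75, 4.01 and 9.63 in CS 1 to 3, and 0.925, 0.71 and 1.51 in air 1 to 3. Every CS array lay above every other array, and IQOS and air overlapped. The log2 fold change of Saa3 was 2.75 ± 0.40 for CS against air (6.71-fold, 95% interval 3.52 to 12.8, limma adjusted p = 0.0101), the largest of the 9 genes in that comparison. It was -2.33 ± 0.40 for IQOS against CS (5.02-fold lower, adjusted p = 0.0153) and 0.42 ± 0.40 for IQOS against air, with an interval of 0.701-fold to 2.55-fold (adjusted p = 0.585). The call for CS against air held without any single one of the 9 arrays, and that for IQOS against CS was lost without IQOS 1 (adjusted p = 0.0509) or IQOS 2 (adjusted p = 0.0508).

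Saa1 had normalised signals of 0.352, 0.444 and 0.537 in the IQOS arrays, 1.46, 0.766 and 1.47 in the CS arrays, and 0.385, 0.314 and 0.438 in the air arrays. CS 2 was the lowest CS array and still above every IQOS and air array, which overlapped. Saa1 was 3.14-fold higher in CS than in air (log2 1.65 ± 0.28, limma adjusted p = 0.0143) and 2.69-fold lower in IQOS than in CS (log2 -1.43 ± 0.28, adjusted p = 0.0212). IQOS against air gave a log2 fold change of 0.22 (interval -0.41 to 0.86, adjusted p = 0.675). The call against air was lost without air 1 (adjusted p = 0.0572), and the call against CS without CS 3, IQOS 1 or IQOS 2 (adjusted p between 0.0631 and 0.0662).

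Saa2 was the dimmest of the 13 probes. Its normalised signals were 0.0349, 0.039 and 0.051 in IQOS 1 to 3, 0.133, 0.105 and 0.188 in CS 1 to 3, and 0.067, 0.0461 and 0.0859 in air 1 to 3. The CS arrays were again above all others, while IQOS 1 and IQOS 2 were below every air array and IQOS 3 was above air 2. Saa2 was 2.15-fold higher in CS than in air (log2 1.11 ± 0.28, limma adjusted p = 0.046), a call lost when any 1 of the 9 arrays was left out (adjusted p up to 0.122). In IQOS against CS it was 3.36-fold lower (log2 -1.75 ± 0.28, adjusted p = 0.0119), a call that held without any single array. For IQOS against air the log2 fold change was -0.64 (interval -1.29 to 0.00, adjusted p = 0.231). The RefSeq table lists Saa1 and Saa2 as synonyms of each other, and probe sequences were not used here, so how far these 2 probes take up RNA of the other gene is uncertain.

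Lipocalin-2, encoded by Lcn2, binds the siderophores with which bacteria take up iron, and comes from neutrophil granules and stimulated epithelium. On its brighter probe the normalised signals were 17.3, 24.4 and 27.6 in IQOS 1 to 3, 54.1, 39.9 and 66.2 in CS 1 to 3, and 14, 11.9 and 18.4 in air 1 to 3. CS arrays exceeded all others, and IQOS 2 and IQOS 3 exceeded every air array while IQOS 1 was below air 3. The second probe gave the same order of arrays within each group, with 4.52, 6.55 and 7.17 in IQOS, 13.8, 10.2 and 18.2 in CS, and 3.38, 2.94 and 4.65 in air. Lcn2 was 3.6-fold higher in CS than in air (log2 1.85 ± 0.25, limma adjusted p = 0.00778), and 3.81-fold higher by the second probe (adjusted p = 0.00837). It was 2.31-fold lower in IQOS than in CS (log2 -1.21 ± 0.25, adjusted p = 0.0255). IQOS against air gave a 1.56-fold higher signal that was not called (log2 0.64 ± 0.25, interval 0.07 to 1.21, unadjusted p = 0.0327, limma adjusted p = 0.186), with 1.66-fold and adjusted p = 0.165 on the second probe. The CS call against air held without any single array, and that between IQOS and CS was lost without CS 1, CS 3, IQOS 1 or IQOS 2 (adjusted p between 0.0556 and 0.0733).

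Hp encodes haptoglobin, which captures free haemoglobin, and Hpx encodes hemopexin, which captures free haem. The Hp signals were 141, 155 and 142 times the 75th percentile in IQOS 1 to 3, 166, 183 and 173 in CS 1 to 3, and 141, 139 and 139.6 in air 1 to 3. No spot of a member probe was saturated. The air arrays lay within a narrow band, the CS arrays above all others, and IQOS 2 between them. Hp was 1.24-fold higher in CS than in air (log2 0.31 ± 0.06, limma adjusted p = 0.0237) and 1.19-fold lower in IQOS than in CS (log2 -0.26 ± 0.06, adjusted p = 0.0426). Both calls of Hp rested on single arrays. The one against air needed each air array as well as CS 2 and CS 3, with a limma adjusted p of up to 0.0827 when 1 of them was left out. The one against CS was lost when any array but CS 1 was left out (limma adjusted p up to 0.133). IQOS against air gave a log2 fold change of 0.06 (interval -0.09 to 0.20, adjusted p = 0.628).

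Hpx was not called in any comparison. Its normalised signals were 0.229, 0.373 and 0.273 in IQOS 1 to 3, 0.412, 0.355 and 0.449 in CS 1 to 3, and 0.407, 0.323 and 0.359 in air 1 to 3. IQOS 1 and IQOS 3 were below the other 7 arrays, while IQOS 2 overlapped both other groups. The log2 fold change of Hpx was 0.16 for CS against air (interval -0.26 to 0.58, limma adjusted p = 0.601), -0.34 for IQOS against air (interval -0.76 to 0.08, adjusted p = 0.317) and -0.50 for IQOS against CS (interval -0.92 to -0.08, adjusted p = 0.121). On the linear scale the interval for CS against air ran from 0.836-fold to 1.49-fold.

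Orm1 encodes alpha-1-acid glycoprotein (orosomucoid), a lipocalin-type plasma carrier of small molecules. Its normalised signals were 0.12, 0.142 and 0.335 in IQOS 1 to 3, 0.941, 0.824 and 1.08 in CS 1 to 3, and 0.244, 0.242 and 0.286 in air 1 to 3. The CS arrays stood well above all others. IQOS 1 and IQOS 2 were below every air array, and IQOS 3 was above every air array. Orm1 was 3.68-fold higher in CS than in air (log2 1.88 ± 0.34, limma adjusted p = 0.018) and 5.28-fold lower in IQOS than in CS (log2 -2.40 ± 0.34, adjusted p = 0.00817), the largest IQOS to CS difference of the 9 genes. For IQOS against air the log2 fold change was -0.52 (interval -1.31 to 0.27, adjusted p = 0.41). Without IQOS 3 it was -0.97 and called (adjusted p = 0.0374). Leaving out air 1, air 2, CS 2 or CS 3 ended the Orm1 call for CS against air (adjusted p between 0.0509 and 0.0698), and that for IQOS against CS held without any single array.

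Cp encodes ceruloplasmin, the copper-carrying ferroxidase of plasma, and Serpina3n a mouse serine protease inhibitor of the alpha-1-antichymotrypsin group. On the brightest Cp probe the normalised signals were 11.3, 14.2 and 15.2 in IQOS 1 to 3, 13.2, 11.7 and 10.3 in CS 1 to 3, and 9.92, 11.2 and 10.9 in air 1 to 3. IQOS was the highest group for this gene, with IQOS 1 just above the highest air array, and CS overlapped both. Cp had log2 fold changes of 0.33 for IQOS against air (interval 0.03 to 0.64, unadjusted p = 0.0358, limma adjusted p = 0.194), 0.13 for CS against air (interval -0.17 to 0.44, adjusted p = 0.552) and 0.20 for IQOS against CS (interval -0.10 to 0.51, adjusted p = 0.355). The other 3 probes of Cp gave 0.12, 0.19 and 0.37 for IQOS against air, and 0 of the 4 probes was called in any of the comparisons. Serpina3n had signals of 1.66, 1.6 and 1.94 in IQOS 1 to 3, 1.99, 2.26 and 2.98 in CS 1 to 3, and 2.11, 1.87 and 1.99 in air 1 to 3. Every IQOS array was below every CS array, yet the difference was not called (log2 -0.46 ± 0.15, unadjusted p = 0.0143, adjusted p = 0.0892). It was called when CS 1 was left out (log2 -0.59, adjusted p = 0.0487). Serpina3n gave a log2 fold change of 0.26 for CS against air (interval -0.08 to 0.60, adjusted p = 0.284) and -0.20 for IQOS against air (interval -0.54 to 0.14, adjusted p = 0.464).

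**Figure D2:**
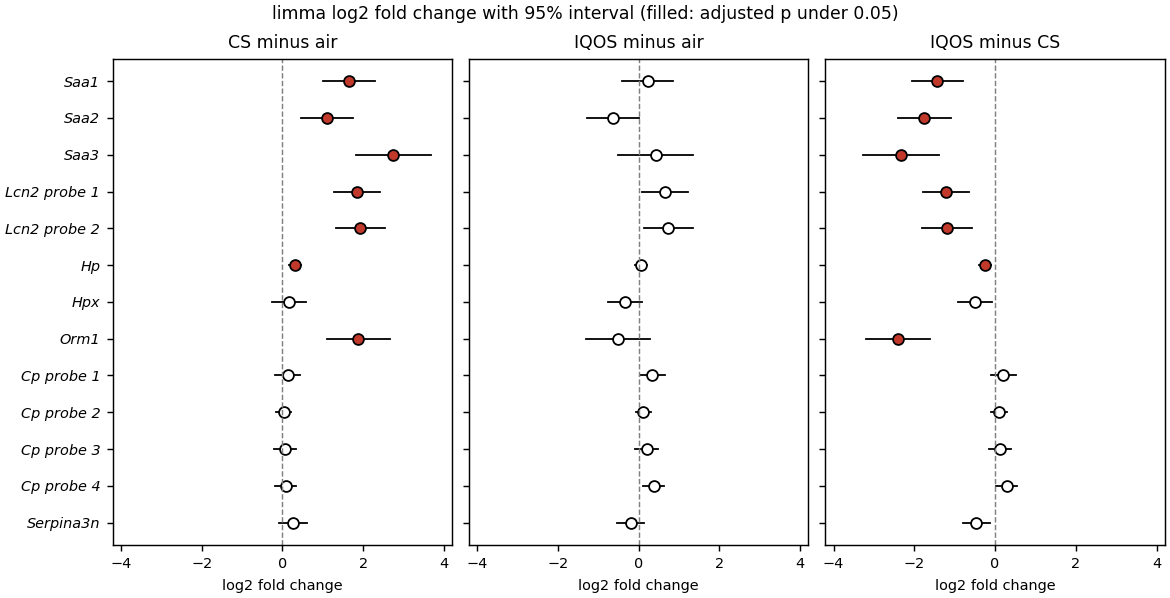
Log2 fold change (x axis) of each of the 13 member probes with its 95% interval, in a panel each for CS minus air, for IQOS minus air and for IQOS minus CS, with filled points at an adjusted p under 0.05. The probes of Saa1, Saa2, Saa3, Lcn2, Hp and Orm1 are filled on the right in CS minus air and on the left in IQOS minus CS, and no point is filled in IQOS minus air.

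The number of member calls depended on single arrays and on whether array row was in the fit. For CS against air 2 of the 6 calls were made without air 1, and 3 without air 2, CS 2 or CS 3. For IQOS against CS 2 were made without IQOS 1 or IQOS 2 and 3 without CS 3. Over all genes the CS against air calls numbered 1946 with all arrays and 409 without air 1. They numbered 1068 without air 2, 558 without CS 2 and 1000 without CS 3. Over all genes the IQOS against CS calls numbered 1679 with all arrays, and 710 without IQOS 1, 654 without IQOS 2 and 712 without CS 3. With array row as a covariate 0 of the 6 genes were called in either comparison, while 169 genes were called over the whole array for CS against air and 27 for IQOS against CS. Only the air arrays span both rows of a slide within a group, so the row term is air 3 set against air 1 and air 2. For CS against air that fit compares CS with air 3 alone. For IQOS against CS, where row and group coincide, its correction for row is taken from the air arrays only. Its log2 fold changes for CS against air were 2.15 for Saa3, 1.43 for Saa1, 0.69 for Saa2, 1.51 for Lcn2, 0.32 for Hp and 1.73 for Orm1, with adjusted p between 0.0993 and 0.39. For IQOS against CS it gave -1.43 for Saa3, -1.09 for Saa1, -1.12 for Saa2, -0.70 for Lcn2, -0.26 for Hp and -2.17 for Orm1, with adjusted p between 0.289 and 0.566.

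Within groups the 9 genes often put the same array highest or lowest. IQOS 3 was the highest IQOS array for 7 of the 9 genes and IQOS 1 the lowest for 8. CS 3 was the highest CS array for 7 and CS 2 the lowest for 6, while air 3 was the highest air array for 5 and air 2 the lowest for 8. Hp, Cp and Serpina3n departed from this in CS. The highest CS array was CS 2 for Hp and CS 1 for Cp, and the lowest was CS 1 for Hp and Serpina3n and CS 3 for Cp. As a measure of likeness, the root mean square difference of 2 genes' log2 deviations from their own means over the 9 arrays was 0.215 for Saa1 and Lcn2, 0.402 for Saa1 and Saa2, 0.516 for Saa1 and Saa3, and 0.461 for Saa2 and Orm1. The flattest genes were also close to each other, with 0.202 for Hp and Serpina3n, a value that small changes alone can give.

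**Figure D3:**
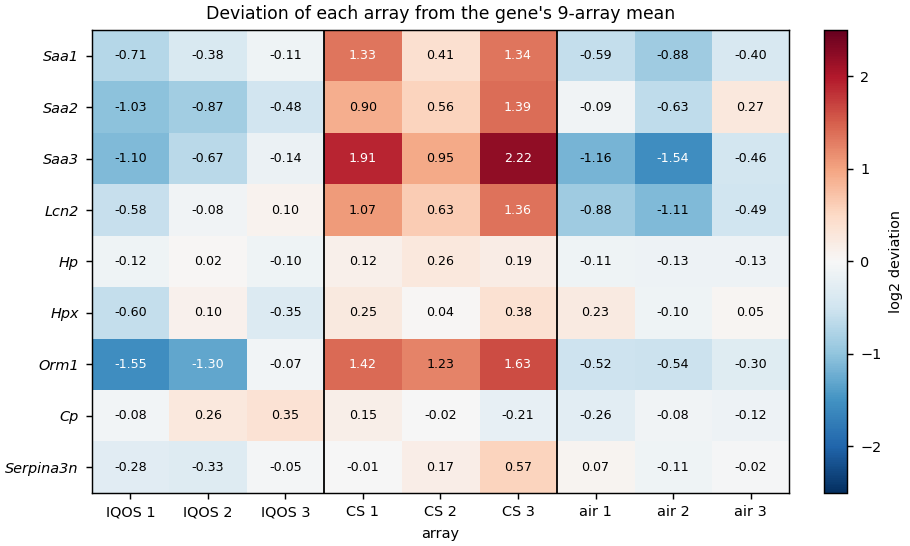
Log2 deviation of each array (columns, IQOS 1 to 3, CS 1 to 3 and air 1 to 3) from the gene's mean over all 9 arrays (rows, the 9 genes), on a colour scale from blue (below) to red (above) with the value in each cell. CS 3 reaches 2.22 for Saa3 and 1.63 for Orm1, IQOS 1 lies at -1.55 for Orm1, and the row of Hp stays between -0.13 and 0.26.

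By the same measure, the 3 non-member genes closest to each called member were found among 16492 genes. Nearest to Orm1 was Orm2 at 0.115, its close paralog, followed by the neutrophil chemokine Cxcl2 at 0.28 and the potassium channel gene Kcnj10 at 0.283. Nearest to Saa3 were Tnfrsf9, which encodes the costimulatory receptor 4-1BB, at 0.326, Kcnj10 at 0.375 and Rgs16, a regulator of G-protein signalling, at 0.379. Lcn2 was closest to Mat1a at 0.267, Gm36841 at 0.272 and the metallothionein gene Mt1 at 0.277, and Saa1 to Zranb3 at 0.231, the chemokine gene Ccl6 at 0.25 and Mat1a at 0.265. For Saa2 they were Sectm1b at 0.243, Akr1b8 at 0.258 and Mucl3 at 0.26. Hp, whose own range is small, lay within 0.04 of Marveld2, Nup50 and Arf6. Of these 18 places, 7 were filled by the same genes under normexp background correction and 14 under quantile normalisation.

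The wider acute-phase response was read from a list of 20 other positive acute-phase genes, of which 13 were tested. In CS against air 6 of the 13 were higher and 0 lower (median log2 fold change 0.28, against -0.02 over all genes). In IQOS against air 0 were called in limma, with 2 at an unadjusted p under 0.05 (median 0.11), and in IQOS against CS 4 were lower (median -0.47). Fgg, the gamma chain of fibrinogen, had normalised signals of 0.274, 0.606 and 0.376 in IQOS 1 to 3, 1.54, 2.75 and 1.59 in CS 1 to 3, and 0.288, 0.314 and 0.168 in air 1 to 3. All CS arrays were higher than the rest, for Fgg a log2 fold change of 2.93 ± 0.37 against air (limma adjusted p = 0.00639), and its log2 fold change was -2.25 ± 0.37 for IQOS against CS (adjusted p = 0.0124). The Fga and Fgb chains did not pass the filter on dim probes. Crp and Apcs, the pentraxins C-reactive protein and serum amyloid P, were well above background on 0 of the 9 arrays.

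Orm2 and Orm3, paralogs of Orm1 whose probes may take up each other's RNA, and Lrg1, a leucine-rich glycoprotein made by neutrophils and epithelium, were also called in CS against air. Orm2 had normalised signals of 0.0331, 0.0429 and 0.107 in IQOS 1 to 3, 0.295, 0.286 and 0.386 in CS 1 to 3, and 0.0701, 0.0783 and 0.0958 in air 1 to 3, the same pattern as Orm1 with IQOS 3 apart from IQOS 1 and 2. Its log2 fold change was 1.98 for CS against air (limma adjusted p = 0.023) and -2.58 for IQOS against CS (adjusted p = 0.00983). Leaving out any 1 of air 1, air 2, air 3, CS 2 or CS 3 ended the Orm2 call against air. Lrg1 had a log2 fold change of 1.52 for CS against air (adjusted p = 0.0169), lost without air 1, air 2 or CS 2. Cd14, the lipopolysaccharide co-receptor, had 0.94 for CS against air (adjusted p = 0.0281) and -0.90 for IQOS against CS (adjusted p = 0.0319). The first of these calls was lost without air 1, CS 2 or CS 3, and the second without 7 of the 9 arrays, all but air 2 and air 3. The other 2 called against air were Orm3 and the complement factor gene Cfb. Itih4, an inter-alpha-inhibitor heavy chain, was the fourth gene lower in IQOS than in CS (log2 -0.55, adjusted p = 0.0175, lost without CS 2).

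Negative acute-phase proteins are plasma proteins whose liver production falls in inflammation. Of 10 such genes 6 were tested, and 0 were called in CS against air or in IQOS against air in limma, with 1 at an unadjusted p under 0.05 in each. In IQOS against CS 1 was lower, Rbp4, the retinol carrier (log2 -0.67, adjusted p = 0.0205, lost without CS 2, CS 3 or IQOS 2). Alb, serum albumin, was low on all arrays but air 3, with normalised signals of 0.0607, 0.0628 and 0.0476 in IQOS 1 to 3, 0.107, 0.106 and 0.102 in CS 1 to 3, and 0.0837, 0.0664 and 0.591 in air 1 to 3. Its log2 fold change for CS against air was -0.51 with air 3 and 0.49 without it, neither of them called (limma adjusted p = 0.681 and 0.0989). For IQOS against CS the log2 fold change of Alb was -0.89, not called with all arrays (adjusted p = 0.455) and called lower without air 3 (adjusted p = 0.0152) or with the IQOS and CS arrays alone (adjusted p = 0.0219). Apoa1 was well above background on 0 of the 9 arrays. Among 7 tested hepatocyte markers 1 was called, Tat, higher in CS than in air (log2 0.59, adjusted p = 0.0378). That call was lost in 11 of 19 alternative settings, 7 of them with 1 array left out. Cps1 was well above background on 0 arrays. The summed normalised signal of the 7 ranged from 3.8 to 4.21 in IQOS, 3.77 to 4.14 in CS and 2.82 to 5.19 in air.

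Genes that induce the acute phase were read from a list of 24 cytokines, receptors, kinases and transcription factors, of which 23 were tested. In CS against air 10 were higher and 0 lower (median log2 fold change 0.35), in IQOS against air 0 were higher and 1 lower (median -0.02), and in IQOS against CS 7 were lower (median -0.25). Il6, which encodes the main inducing cytokine, had normalised signals of 0.16, 0.118 and 0.14 in IQOS 1 to 3, 1.21, 0.518 and 0.722 in CS 1 to 3, and 0.146, 0.234 and 0.103 in air 1 to 3. CS exceeded both other groups without overlap, and IQOS lay within the range of air. The log2 fold change of Il6 was 2.34 ± 0.36 for CS against air (limma adjusted p = 0.012, or 0.0518 without air 1) and -2.48 ± 0.36 for IQOS against CS (adjusted p = 0.00905). Socs3, the feedback inhibitor induced by STAT3, had log2 fold changes of 1.77 ± 0.16 for CS against air (adjusted p = 0.0028), a call that held under all 19 alternative settings, and -1.18 ± 0.16 for IQOS against CS (adjusted p = 0.00678).

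Osm, encoding the IL-6-type cytokine oncostatin M, had a log2 fold change of 2.02 for CS against air (limma adjusted p = 0.0114, lost without air 1). Il1b, encoding interleukin-1 beta, had normalised signals of 9.52, 2.87 and 10.1 in IQOS 1 to 3, 7.24, 15.4 and 24.4 in CS 1 to 3, and 2.33, 2.7 and 3.26 in air 1 to 3. IQOS 1 and IQOS 3 lay within the range of CS and IQOS 2 within that of air. Its log2 fold change was 2.35 ± 0.56 for CS against air (adjusted p = 0.0399), lost without any 1 of air 1, air 2, air 3, CS 2, CS 3 or IQOS 1, and 1.25 ± 0.56 for IQOS against air (adjusted p = 0.246). Nfkbiz, which encodes the nuclear cofactor I-kappa-B-zeta, had 0.84 for CS against air (adjusted p = 0.0166, lost without air 1 or air 3). Il1a was not well above background on any IQOS array. With its IQOS signals raised to the lowest signal well above background on each array, it was 2.17-fold lower in IQOS than in CS. The measured change, without that floor, was called (limma adjusted p = 0.0133, or 0.0503 without CS 2). The gene called in IQOS against air was Nfkb1, encoding an NF-kappaB subunit, with a log2 fold change of -0.29 (adjusted p = 0.0448), a call lost whichever of the 9 arrays was left out.

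**Figure D4:**
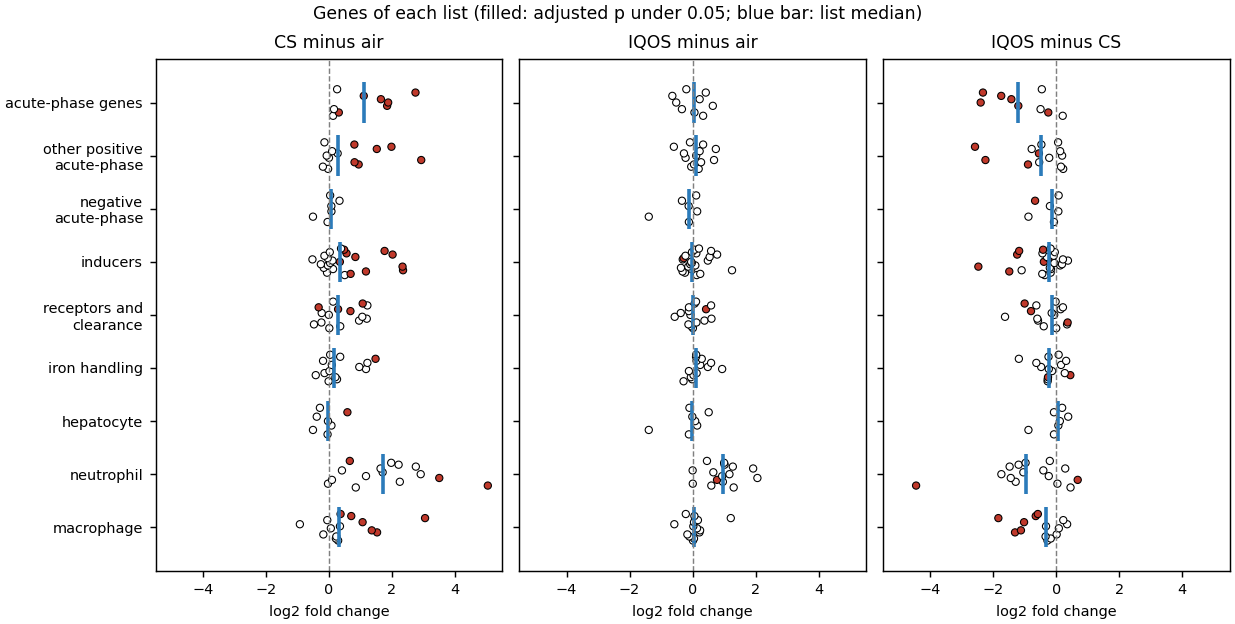
Log2 fold change (x axis) of each tested gene in 9 gene lists (rows), with a panel each for CS minus air, for IQOS minus air and for IQOS minus CS, with filled points at an adjusted p under 0.05 and a blue bar at the list median. The acute-phase genes have a median of 1.11 in CS minus air, 0.06 in IQOS minus air and -1.21 in IQOS minus CS, and the neutrophil markers 1.70, 0.96 and -0.98.

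Of 15 receptors and clearance partners of the acute-phase proteins, all tested, 11 were not called in CS against air, 3 were higher and 1 was lower. In the other comparisons 1 was higher in IQOS than in air, and 1 was higher and 2 were lower in IQOS than in CS. Tlr2 and P2rx7, innate immune receptors through which serum amyloid A has been reported to act, had log2 fold changes of 1.07 (limma adjusted p = 0.00416) and 0.68 (adjusted p = 0.0143) for CS against air and -1.01 (adjusted p = 0.00364) and -0.80 (adjusted p = 0.00812) for IQOS against CS. Without CS 2 the adjusted p of P2rx7 against air was 0.0505. Slc22a17, a receptor for lipocalin-2, was lower in CS, with normalised signals of 3.58, 3.7 and 3.92 in IQOS, 3.22, 3.08 and 3.39 in CS, and 3.99, 4.13 and 4.02 in air. Its log2 fold change was -0.33 for CS against air (adjusted p = 0.0204), a call lost without air 1, air 2, air 3 or CS 2. Scarb1, the high-density lipoprotein receptor, was the gene higher in IQOS than in air (log2 0.43, adjusted p = 0.0227), a call lost without air 1, air 3, IQOS 1, IQOS 2 or IQOS 3. Scarb1 was also the third gene higher in CS than in air (log2 0.29, adjusted p = 0.0402), a call lost without 7 of the 9 arrays.

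Fpr2, a formyl peptide receptor that binds serum amyloid A, had normalised signals of 4.7, 2.81 and 6.06 in IQOS 1 to 3, 3.02, 7.68 and 12.1 in CS 1 to 3, and 2.86, 2.27 and 3.55 in air 1 to 3. CS 1 was within the range of air, and the log2 fold change of 1.20 for CS against air was not called (limma adjusted p = 0.156). Cd163, the macrophage receptor for haptoglobin bound to haemoglobin, had a log2 fold change of -0.48 for CS against air (interval -0.91 to -0.04, adjusted p = 0.141). Hmox1, the enzyme that breaks down haem, ranged from 8.25 to 43.1 across the air arrays alone and had a log2 fold change of 1.06 for CS against air (adjusted p = 0.306). Of 14 iron-handling genes 1 was called in CS against air, the metalloreductase gene Steap4, which was higher (log2 1.48, adjusted p = 0.0286, lost without air 1, air 2, air 3 or CS 2). In IQOS against CS the ferritin light chain gene Ftl1 was lower (log2 -0.26, adjusted p = 0.0274) and the ferroxidase gene Heph higher (log2 0.45, adjusted p = 0.0492). The Ftl1 call was lost in 11 of 19 alternative settings, 6 of them with 1 array left out, and the Heph call in 16, including every fit with 1 array left out.

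Markers of cell types that lung tissue can hold are given beside the members, and their part in the members' results was not tested. Of 15 tested neutrophil markers 3 were higher in CS than in air, the decoy receptor gene Il1r2, the surface receptor gene Trem1 and Cd177 (well above background on 1 of 3 air arrays). All 3 calls were lost without air 1 or CS 2, and that of Cd177 also without air 3 or CS 3. The protease gene Elane was higher in IQOS than in air and than in CS. Cd177, well above background on 2 of 3 IQOS arrays and on every CS array, was lower in IQOS than in CS. Its probe passed the filter on dim probes through the CS arrays alone, so the size of its differences is uncertain. The Elane call against air was lost without air 1 or air 3, and the Cd177 call against CS without CS 1, CS 2, CS 3, IQOS 2 or IQOS 3. Their summed normalised signal, in which the probes with the highest signals weigh most, was 443, 188 and 439 in IQOS 1 to 3, 346, 552 and 761 in CS 1 to 3, and 187, 201 and 239.6 in air 1 to 3. IQOS 1 and 3 thus lay within the range of CS and IQOS 2 within that of air. The Lcn2 signal of IQOS 2 lay between those of IQOS 1 and IQOS 3. Within CS the lowest array by neutrophil sum was CS 1, and by Saa3, Saa1, Saa2, Lcn2 and Orm1 it was CS 2. Single neutrophil markers differed in this. Il1r2 and Trem1 were lowest in CS 1 within CS and in IQOS 2 within IQOS. Cd177 was lowest in CS 2 within CS (0.973, 0.629 and 0.949), and Elane highest in IQOS 2 within IQOS (1.18, 1.62 and 1.34). S100a8 and S100a9, abundant neutrophil genes, had log2 fold changes of 2.21 (limma adjusted p = 0.077) and 1.98 (adjusted p = 0.0844) for CS against air. With the same fold changes both were called without IQOS 2 (adjusted p = 0.0274 and 0.0235) and with the CS and air arrays alone (adjusted p = 0.0404 and 0.0349).

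Of 14 macrophage markers 6 were higher in CS than in air, 0 were called in IQOS against air in limma (2 at an unadjusted p under 0.05), and 6 were lower in IQOS than in CS. The macrophage sum was 213, 221 and 199 in IQOS 1 to 3, 403, 318 and 360.3 in CS 1 to 3, and 196, 178 and 201 in air 1 to 3. Chil3, a chitinase-like gene of alveolar macrophages, made up much of this sum, with 238, 169.6 and 209 in CS 1 to 3. CS 2 was the lowest CS array for Chil3, Cd68 (16.3, 13.3 and 15), Marco (25.7, 11.6 and 22.8) and Itgax (10.5, 8.8 and 9.68). It was also the lowest for Mrc1 and Car4, and the highest for Csf1r, C1qa, C1qb and Krt79. Marco, a scavenger receptor gene, had a log2 fold change of 3.05 for CS against air (limma adjusted p = 0.00482) and -1.84 for IQOS against CS (adjusted p = 0.0178), and Cd68 had 1.53 (adjusted p = 0.00174) and -1.31 (adjusted p = 0.00178). Fabp4, also of this list, went the other way in CS against air and was not called. Its signals were 5.38, 5.23 and 3.32 in CS 1 to 3 and 9.83, 9.23 and 7.02 in air 1 to 3. Car4 and Krt79 were not higher in CS either, and their CS and air arrays overlapped. Car4 had 4.1, 3.57 and 4.09 in CS 1 to 3 and 4.52, 4.9 and 3.91 in air 1 to 3. Krt79 had 6.45, 9.41 and 6.52 in CS 1 to 3 and 8.46, 5.7 and 9.18 in air 1 to 3. Among 12 club and airway secretory markers the 1 called in CS against air was Hp itself, and the sum of the list ranged from 1901 to 2256 in IQOS, 2066 to 2390.1 in CS and 1772 to 1907 in air. Of 10 alveolar type II markers 1 was higher in CS than in air, the surfactant protein gene Sftpd (log2 0.39, adjusted p = 0.036), a call lost in 11 of 19 alternative settings, 7 of them with 1 array left out. Fibroblast markers had 3 of 10 lower in CS than in air, adipocyte markers 2 of 9 and endothelial markers 2 of 8.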

How the data were processed

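Gene expression was measured in whole-lung RNA with one-colour arrays, 3 per group. Per the file headers, the authors extracted spot intensities with Agilent Feature Extraction (version 10.7.1.1 per the submitters' processing notes), which subtracts background and does not normalise between arrays. Values in the deposited series matrix are a linear ratio of each probe to its array's 75th percentile, a scale found from the values. Its column medians were 0.114, 0.116 and 0.121 for air, 0.12, 0.118 and 0.117 for CS, and 0.12, 0.12 and 0.12 for IQOS. It is centred on no probe mean and is larger for brighter spots.

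Of 59305 non-control spots, outlier spots were left out and spots of each of 56605 probes averaged on the log2 scale. Each array's log2 75th percentile was subtracted. A probe was tested if at least 2 arrays per group had a value and all arrays of at least 1 group were well above background, which left 37257. Accessions matched to a RefSeq gene table named 32994 probes with 22911 symbols, of which 16592 were tested, each by its brightest probe. The 3 contrasts came from 1 limma fit of all 9 arrays (version 3.58.1 in R 4.3.3, lmFit then eBayes), with Benjamini-Hochberg adjustment over all tested probes. The number of arrays limits the precision.

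The members, lists and alternatives were chosen with earlier results of these data known. Named were all members, in each list up to 4 called genes (those of smallest p), a few receptors and markers (Il6, Il1b, Fpr2, Cd163, Hmox1, Slc22a17, Alb, S100a8 and S100a9), and the 3 closest genes of each called member. Csf1r, C1qa, C1qb, Krt79, Car4 and Fabp4 were named after their values were seen. Also named outside this rule were Orm3 and Cfb, the remaining called genes of their list. Fga, Fgb, Crp, Apcs, Apoa1 and Cps1 were named outside it too, for their low detection. The fold given for Il1a sets the brighter group against the higher of the dim probe's own signal and the lowest signal well above background on that array. Promoter windows were searched for motifs with a script. In simulated data of 36981 probes, 76% of 100 probes changed 2-fold and 92% of 100 changed 4-fold were recovered for CS against air (6 false calls). The IQOS minus air contrast recovered 67% and 91% (7 false calls). The IQOS minus CS contrast recovered 74% and 96% (13 false calls). In each simulation only the probes counted were changed, noise was drawn independently for each probe, and no slide or row effect was added. These shares may therefore not carry over to the real arrays. Other settings tried were normexp correction of the background on median signals, offset 50 (the planned mean signal column is not in the files), quantile normalisation, median centring, no filter on dim probes, the series matrix, an intensity trend, replicate number as a block, array row, the mean of all probes, the compared arrays alone, and each array left out in turn.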

Additional observations from a re-analysis of the deposited data

How the results depend on the processing

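The calls of members numbered 6 for CS against air, 0 for IQOS against air and 6 for IQOS against CS. They stayed within 1.5 times of these under normexp correction, quantile normalisation, median centring, no filter on dim probes (4, 0 and 4), the series matrix, an intensity trend and the mean of all probes. With array row as a covariate they were 0, 0 and 0, and 169, 88 and 27 genes were called over the whole array. With only the compared arrays they were 5, 0 and 3. Leaving out 1 array gave 2 to 5, 0 to 1 and 2 to 6 calls. With array row in the fit, CS was compared with air 3 alone. That fit also ended calls of other named genes, among them Tlr2, Chil3 and Marco in CS against air. In IQOS against CS it ended those of Tlr2, P2rx7, Cd68 and Itgax, among others. Fgg, Il6, Socs3, P2rx7, Cd68, Itgax and Aplnr kept their calls in CS against air. The cause of the other shifts was not tested. With the replicate number as a block, the replicate block fit made 6, 0 and 5 calls, losing Hp in IQOS against CS (adjusted p = 0.0602) and no other member call. Same-numbered arrays' deviations from their group means correlated between -0.093 and 0.204 over 16501 genes. Arrays of different numbers were not compared, so whether the numbers pair the arrays was not tested.

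Over 27 member results and 19 alternatives, 452 of 513 values kept direction and side of the threshold, 58 lost a call, 2 gained one and 1 turned. The 58 losses were among the 228 values of called results, of which 170 kept the call. Of the 285 values of results not called, 282 stayed the same. Hp in IQOS against air was -0.019 under quantile normalisation. Among the other named genes, these changed sign: Cd163 in IQOS against air to 0.001 with array row as a covariate and without air 3 (range without 1 array -0.326 to 0.001), Il6 in IQOS against air to 0.17 without air 2 (range -0.419 to 0.17), Alb in CS against air to 0.49 without air 3 (range -1.09 to 0.49), and Alb in IQOS against CS to 2.10 with array row (adjusted p = 0.0384), where air 3 sets the row term. Alb was also called lower in CS against air with array row (-2.498, adjusted p = 0.00559) and lower in IQOS against CS without air 3 and with only the compared arrays (-0.89 in both). All member probes were well above background on every array. In every setting the median log2 change over all probes lay within 0.041 of 0.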

Other observations

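Genes of the fibroblast, adipocyte and endothelial lists were lower in CS than in air where they were called. They were Col1a1 (log2 -0.93, limma adjusted p = 0.012), Col3a1 (-0.91, adjusted p = 0.017) and Col1a2 (-0.64, adjusted p = 0.0297), which encode fibrillar collagen chains, the fat cell genes Adrb3 (-0.78, adjusted p = 0.0248) and Plin4 (-0.63, adjusted p = 0.0489), and the endothelial receptor genes Aplnr (-1.42, adjusted p = 0.00277) and Tek (-0.44, adjusted p = 0.0204). Of these, Aplnr kept its call under all 19 alternative settings. Without single arrays, Col1a1 kept its call in all 9 fits, Col3a1 lost it in 1, Tek in 2, Col1a2 in 3, Adrb3 in 4 and Plin4 in 8. The summed adipocyte signal ranged from 27.2 to 45.1 in IQOS, 16.1 to 30.2 in CS and 29.9 to 46.9 in air.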
